A study of Mus musculus with 6 samples.

Results

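The cell cycle genes described here are 45 named genes of DNA replication, mitosis and their transcriptional control, found by symbol among the 54446 genes counted in mouse bone marrow-derived macrophages (BMDMs). All 45 were present in the count table. They were divided by their known roles into 22 genes of mitosis, 17 of DNA replication and 6 regulators.

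The BMDMs came from male BALB/c mice of 6 to 8 weeks, whose marrow was grown for 7 days in medium with 20% L929-conditioned medium, a source of the macrophage growth factor CSF-1. M0 cells received no polarizing cytokine. M1 cells were given LPS at 50 ng/mL together with IFN-γ at 20 ng/mL, and M2 cells were given IL4 at 20 ng/mL, both for 24 hours. When the M0 cells were harvested is not given in the sources used here. Each state was sequenced with vehicle (DMSO, the control) or with the multikinase inhibitor regorafenib. Regorafenib was used at 1 µM from 1 hour before polarization, a dose stated for the M1 and M2 cells and not separately for M0. All 6 libraries are wild type, there was 1 library per condition, and how many mice a library holds is not given in the sources used here. The comparisons ask how regorafenib and each polarization relate to transcripts of proliferation.

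Dividing cells copy their DNA in S phase and separate the copies in mitosis. The genes for these steps are transcribed in waves. E2F factors act on replication genes at the entry to S phase, and FOXM1 and the MuvB complex, which bind the CHR element, act on mitosis genes later. BMDMs divide in culture under CSF-1, through its receptor. Activation by LPS is known to stop them in G1. D-type cyclins link growth factor signals to G1 progression, and CDK inhibitors oppose them.

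The libraries held between 25359309 and 34898342 counts, and a count was set relative to its library's size (CPM) with TMM factors between 0.820 and 1.12. All 10 macrophage genes listed were detected in all 6 libraries and together took 2.33% to 5.51% of counts, with at least 480906 counts of the lysozyme gene Lyz2, 41775 of the CSF-1 receptor gene Csf1r and 8472 of Cd68. Their levels were not constant: with regorafenib in M0, Fcgr1 (−1.48) and Cd14 (−1.04) were called lower and Mertk (1.59) higher on the log2 scale. Against M0 control, 3 of the 10 were called lower and 3 higher in M1 control, and 3 lower and 2 higher in M2 control, with Cx3cr1 at −5.38 and −4.17. Of all genes, 18.0% were called lower and 16.1% higher in M1 control, and 6.64% and 3.55% in M2 control. Each of the 8 M1 marker genes listed was called higher in M1 than in M0 control. Of the 8 IL4 marker genes, 7 were called higher in M2 than in M0 control, and Mrc1 went from 614 to 24237 counts between M0 and M2 control. The summed counts of the 6 erythroid markers were 0 to 10 in a library, those of the 8 lymphoid markers 1 to 23, and the 5 mast cell and basophil markers were at 0 in every library. Among 10 markers of granulocytes and their progenitors, Ly6g was at 0 in every library and Elane at 0 to 2 counts, while the list summed to 2606 counts in M0 control, 5221 in M0 with regorafenib, 4061 and 2649 in M1, and 3243 and 3697 in M2. Mpo held 2479 and 5124 of these in M0 (0.95, not called) and S100a8 held 1804 and 489 in M1, where Camp held 108 and 91 counts against 0 and 1 in M0. The 6 fibroblast markers summed to 98 counts in M0 control, 336 in M0 with regorafenib and 130 to 235 in the others. The 6 dendritic cell markers summed to 10 to 71 counts in M0 and M2 and to 828 and 936 in M1, where Ccr7 held 780 and 827 of them. The 6 markers of stem and progenitor cells summed to 480 and 255 counts in M0 control and regorafenib, 487 and 347 in M2, and 64 and 142 in M1. In M0 and M2 most were of Cd34, which held 463 and 237 counts in M0, 478 and 335 in M2, and 3 and 1 in M1. In M1 most were of Kit, at 35 and 107 counts, which was called higher with regorafenib there (1.71). The part of these other markers in the results was not tested.

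Together the 45 genes took 0.710% of all counts in M0 control and 0.176% in M0 with regorafenib. They took 0.0304% and 0.0325% in M1, without and with regorafenib, and 0.289% and 0.275% in M2. The summed level of the 22 mitosis genes was 3103 CPM in M0 control, 822 in M0 with regorafenib, 105 and 147 in M1, and 1230 and 1233 in M2. For the 17 replication genes these sums were 2822, 636, 225, 196, 1344 and 1109 CPM, and for the 6 regulators 455, 109, 40.0, 41.1, 190 and 154 CPM. M0 control was the highest library and M1 the lowest state for each group. These are levels of RNA from whole cultures, in which fewer dividing cells and less RNA per cell cannot be told apart.

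**Figure D1:**
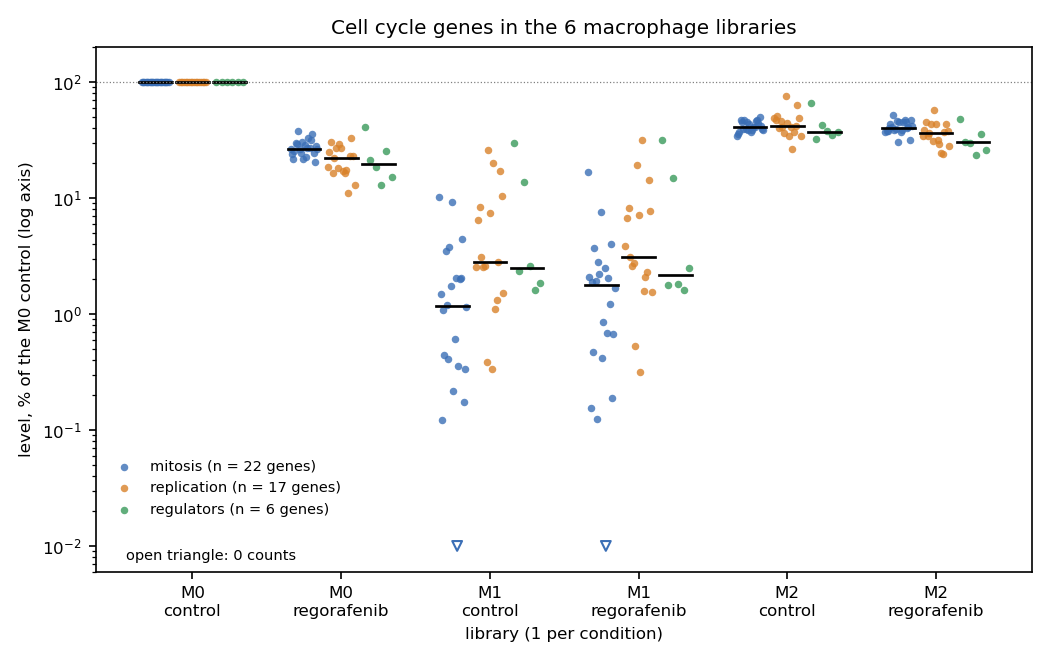
Level of each of the 45 genes in the 6 libraries, as a percent of its level in M0 control on a log axis; each point is 1 gene, black bars are medians of the 3 groups and open triangles stand for Cenpf at 0 counts. The medians over all genes were 24.7% in M0 with regorafenib, 2.05% and 2.09% in M1 and 41.0% and 38.1% in M2.

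Per length of exon, Pcna (ENSMUSG00000027342.14, chromosome 2, 132249162 to 132253314 on GRCm38), the sliding clamp of DNA polymerase, had the highest level of the 45 genes in M0 control, at 196 CPM per kb. Rrm2 (ENSMUSG00000020649.11), the small subunit of the enzyme that makes deoxynucleotides, followed among replication genes at 113 CPM per kb. The highest mitosis genes on this scale were Mki67 (ENSMUSG00000031004.8), which coats mitotic chromosomes, at 59.6 CPM per kb and Top2a (ENSMUSG00000020914.17), the topoisomerase that untangles them, at 53.4. The regulators E2f1 (ENSMUSG00000027490.17) and Ccne1 (ENSMUSG00000002068.16), the cyclin E gene that E2F activates, stood at 28.0 and 19.5 CPM per kb. These regulators had the highest mean over the 6 libraries, while in M0 control Foxm1 stood above Ccne1 at 20.8. The lowest of the 45 was Cenpf, a kinetochore protein gene, at 3.79.

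In M0, all 45 genes were lower with regorafenib. A gene was called where the 2 libraries differed at least 2-fold and the 95% interval of the log2 ratio, which covers counting error only, left out 0. By this rule 45 of 45 were called lower and 0 higher, against 9.59% of the 14917 genes that reached 10 counts in any library called lower and 7.81% called higher. The median log2 ratio of regorafenib to control was −2.02 (−3.18 to −1.29), beside −0.01 over all genes. By group the medians were −1.91 for mitosis, −2.19 for replication and −2.34 for the regulators. No difference between conditions has a replicate check, so no p-value is given for a pair of libraries.

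The lowest ratios in M0 belonged to Cdc6, Ccne2 and Uhrf1. Cdc6 (ENSMUSG00000017499.15, chromosome 11, 98907801 to 98923940), which loads the replicative helicase onto origins, held 1527 counts in M0 control and 181 with regorafenib, a log2 ratio of −3.18 (95% interval −3.41 to −2.96). Ccne2 (ENSMUSG00000028212.16), the second cyclin E gene, went from 2096 to 288 counts (−2.97, −3.15 to −2.79). Uhrf1 (ENSMUSG00000001228.14), which carries DNA methylation over to new strands, went from 6450 to 896 (−2.95, −3.05 to −2.85). These 3 genes stood at 11.05%, 12.8% and 12.9% of their M0 control level. Mybl2, the MYB protein that joins MuvB in S phase, followed at −2.72, then Tyms, the thymidylate synthase gene, at −2.61 and Mcm5, a helicase subunit, at −2.60.

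The smallest differences in M0 were those of E2f1, Cdc20 and Kif23. E2f1, the E2F factor of S phase entry, went from 2715 to 1192 counts (−1.29, −1.39 to −1.19). Cdc20 (ENSMUSG00000006398.15), an activator of the anaphase-promoting complex, went from 1803 to 726 (−1.41, −1.54 to −1.29), and Kif23 (ENSMUSG00000032254.10), a kinesin of cytokinesis, from 4060 to 1549 (−1.49, −1.58 to −1.41). They kept 40.9%, 37.5% and 35.6% of their M0 control level. The intervals of these 3 genes lay above those of Cdc6, Ccne2 and Uhrf1. All were picked by these same ratios, and the intervals cover counting error only, so this is no test of a difference between genes. The genes with the highest levels lay between: Mki67 went from 18430 to 5181 counts (−1.93), Top2a from 14792 to 3788 (−2.07), Pcna from 14456 to 4522 (−1.78), Rrm2 from 9616 to 1771 (−2.54) and Ccne1 from 1597 to 316 (−2.44). Among the other regulators, E2f8, a repressor of E2F targets, was at −2.25, and Foxm1, the forkhead activator of mitosis genes, at −1.98.

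**Figure D2:**
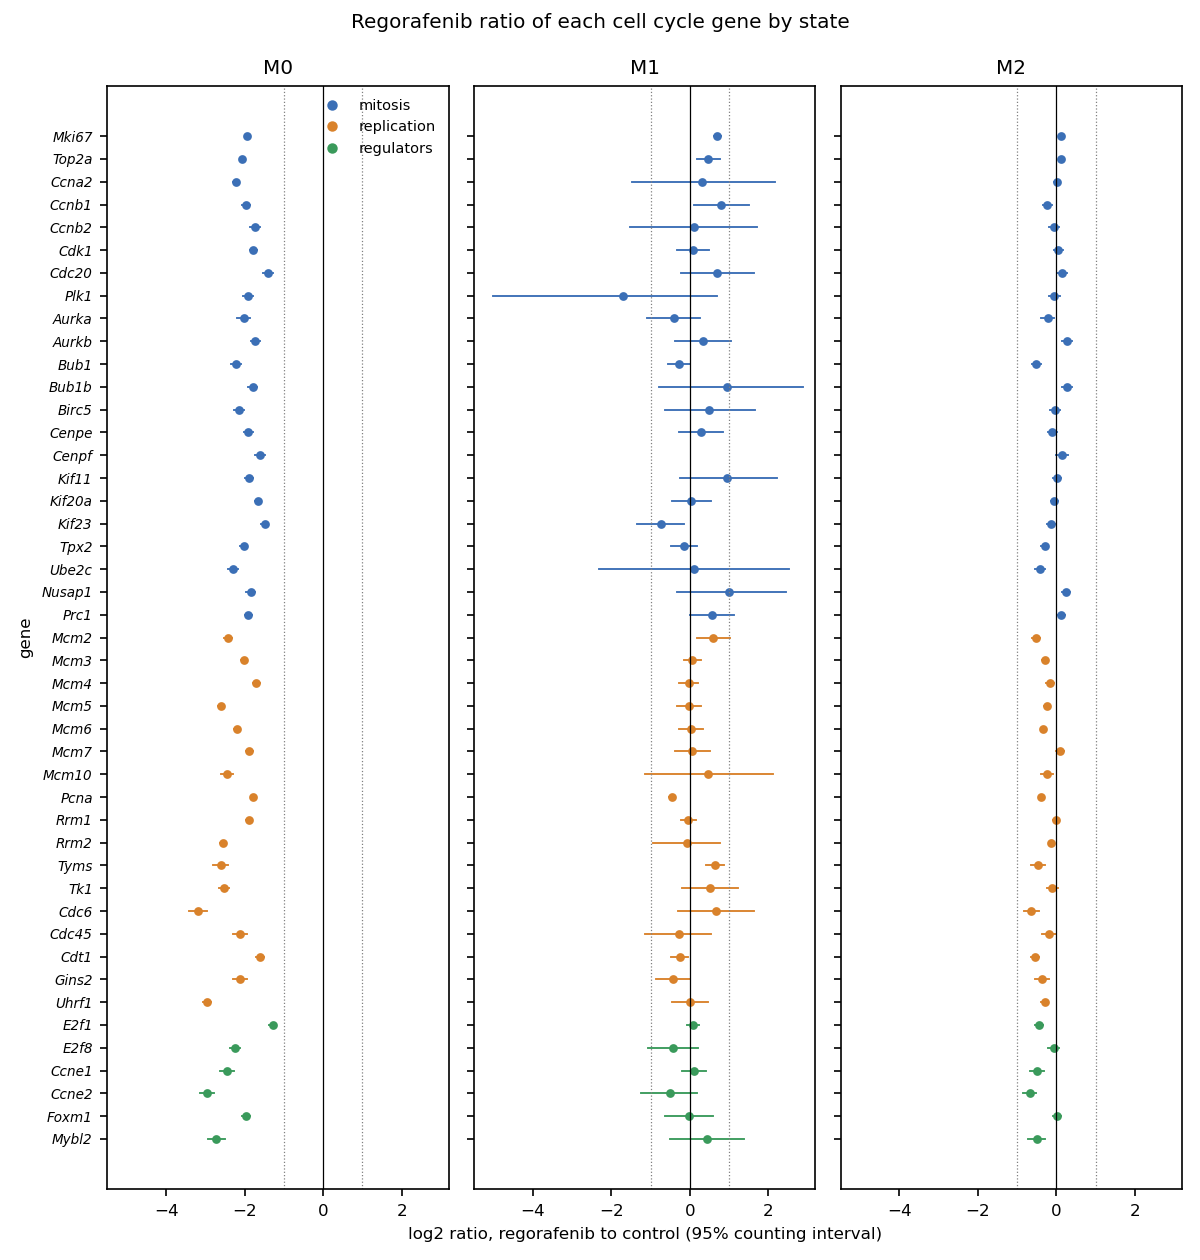
Log2 ratio of regorafenib to control for each of the 45 genes in M0, M1 and M2, with its 95% counting interval; dotted lines mark a 2-fold difference, colours the 3 groups, and Cenpf has no point in M1, where it was at 0 counts in both libraries. All 45 points lie left of the lower dotted line in M0, and 0 of 45 genes were called in M1 or M2.

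Promoter sequences of RefSeq (GRCm38.p6, 250 bases before to 50 after a start site) were found for 37 of the 45 genes. They were searched on both strands for the CHR (TTTGAA or TTCGAA), the CCAAT box (CCAAT) and an E2F motif in any of its forms, which were TTCCCGC, then TTGGCGC, then TTCGCGC, then TTGCCGC. The CHR was present in 14 of 18 mitosis promoters, 3 of 15 replication promoters and 1 of 4 regulators, and in 21.7% of all 27025 genes with such a sequence. The E2F motif was present in 3 of 18, 9 of 15 and 1 of 4, and in 10.9% of all. The CCAAT box was present in 16 of 18, 11 of 15 and 1 of 4, and in 41.1% of all, and every mitosis promoter with a CHR also held a CCAAT box. Sequence is shown for the mitosis and replication genes with the lowest and the highest ratio in M0 among those with 1 RefSeq window, 5′ to 3′ on the strand of the gene with each motif in capitals. Ube2c and Cdc20 are shown over the 250 bases before the start site, at chr2:164769679-164769928 (plus strand) and chr4:118437344-118437593 (minus strand). For Cdc6 and Cdt1, 30 bases around the motifs are shown, at chr11:98908001-98908030 and chr8:122568029-122568058 (both plus strand).
Ube2c: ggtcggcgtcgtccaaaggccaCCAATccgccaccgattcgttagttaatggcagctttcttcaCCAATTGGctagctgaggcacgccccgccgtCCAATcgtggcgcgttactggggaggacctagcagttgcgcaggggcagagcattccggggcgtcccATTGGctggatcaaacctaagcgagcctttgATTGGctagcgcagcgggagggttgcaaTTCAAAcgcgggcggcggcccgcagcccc
Cdc20: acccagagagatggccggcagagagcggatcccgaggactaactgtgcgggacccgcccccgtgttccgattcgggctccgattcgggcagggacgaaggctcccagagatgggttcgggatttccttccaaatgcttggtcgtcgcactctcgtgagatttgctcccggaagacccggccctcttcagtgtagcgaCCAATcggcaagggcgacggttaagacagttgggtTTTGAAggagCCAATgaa
Cdc6: ggccggtggagaGCGGGAAatcgcctgggg
Cdt1: atccGCGGGAActacctttTTGGCGCcatg
Counted from the start site, the CHR begins at −29 in Ube2c and at −18 in Cdc20, with CCAAT boxes upstream of it in both at −57 and −53. In Ube2c a CCAAT box on each strand overlaps at −186 and −183. The E2F motif begins at −138 in Cdc6 and at 19 and 34 in Cdt1. Gencode starts the Cdc6 gene at 98907801, before the whole RefSeq window, so the motif in Cdc6 lies inside the annotated gene. Ube2c, the ubiquitin-conjugating enzyme of the anaphase-promoting complex, had the lowest ratio of all 22 mitosis genes in M0 at −2.29 and Cdc20 the highest at −1.41, and both windows hold the CHR. Cdc6 at −3.18 and Cdt1, which loads the helicase together with Cdc6, at −1.60 were the lowest and the highest of the 17 replication genes, and both hold an E2F motif. A match of letters is a description of the sequence, and binding was not measured.

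**Figure D3:**
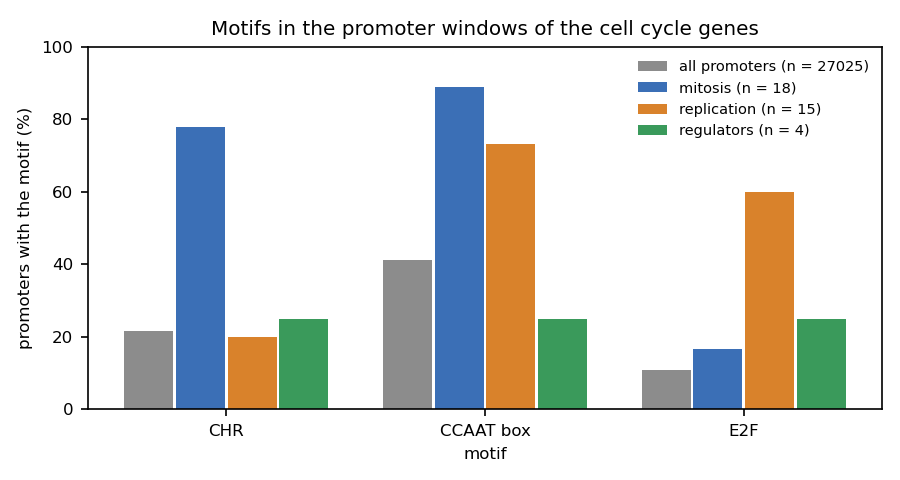
Share of genes whose RefSeq promoter sequence holds each motif, in percent, for all 27025 genes (grey) and for the 18 mitosis, 15 replication and 4 regulator genes with a sequence. The CHR stands at 77.8% for mitosis against 3 of 15 genes for replication, and the E2F motif at 16.7% against 60.0%.

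In M1, most of the 45 genes were low with and without regorafenib, and 11 stood below 1% of their M0 control level in each library. By the same rule 0 of 45 were called lower and 0 higher, with 2.30% of all genes called lower and 1.17% called higher. The median log2 ratio was 0.09 (−1.71 to 1.01), beside −0.02 over all genes. The interval lay above 0 for 6 of 45 genes and below 0 for 3, where 15.9% of all genes had an interval above 0 and 21.3% below, so neither share of the members exceeded that of all genes.

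Pcna, the highest of the 45 per length in both M1 libraries, held 3175 counts in control and 2164 with regorafenib (log2 ratio −0.45, 95% interval −0.53 to −0.37). Kif23 went from 70 to 39 counts (−0.74, −1.35 to −0.16), and Cdt1 from 413 to 323 (−0.25, −0.47 to −0.04). On the other side, Mki67 went from 1589 to 2417 counts (0.71, 0.61 to 0.80), Tyms from 246 to 358 (0.64, 0.40 to 0.88), Mcm2, a helicase subunit, from 85 to 120 (0.60, 0.18 to 1.02), Top2a from 185 to 240 (0.48, 0.19 to 0.76) and Ccnb1, a mitotic cyclin, from 29 to 47 (0.80, 0.10 to 1.52). Prc1, a midzone microtubule gene, went from 48 to 66 counts with a lower bound just above 0 (0.56). All of these differences were under 2-fold. Among genes with at least 100 counts in M1, Gins2 and Bub1 had the next lowest ratios after Pcna (−0.43 and −0.26), with intervals that held 0. For genes such as Ccna2 (6 and 7 counts), Ube2c (4 and 4) and Plk1 (7 and 2) a difference was not detectable at this depth, and Cenpf was at 0 counts in both libraries.

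In M2, 0 of 45 genes were called with regorafenib, with 3.83% of all genes called lower and 5.03% called higher. The median log2 ratio was −0.13 (−0.68 to 0.27), beside −0.01 over all genes. Over all genes, 31.6% had an interval below 0 and 26.1% above. Of the members, 14 of 17 replication genes and 4 of 6 regulators had an interval below 0 and 0 above it, with medians of −0.29 and −0.47. Of the 22 mitosis genes, 6 had an interval below 0 and 7 above it, near the shares of all genes, with a median of −0.01. The difference between the groups was not tested.

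The lowest ratios in M2 were those of Ccne2, Cdc6 and Cdt1, genes of S phase entry and origin licensing. Ccne2 held 939 counts in M2 control and 449 with regorafenib (−0.68, −0.85 to −0.52), Cdc6 676 and 332 (−0.64, −0.84 to −0.45), and Cdt1 2159 and 1128 (−0.55, −0.66 to −0.45). The highest ratios belonged to mitosis genes. Bub1b, a kinase of the spindle checkpoint, held 1213 and 1121 counts (0.27, 0.15 to 0.39), Aurkb, the kinase of the chromosomal passenger complex, 1030 and 948 (0.26, 0.14 to 0.39), and Nusap1, a spindle protein, 1333 and 1209 (0.24, 0.13 to 0.36). Counts of these 3 were lower with regorafenib and their scaled levels higher, since the regorafenib library of M2 was the smallest and its control the largest. Mki67 and Top2a both stood at 0.11 (7534 and 6231 counts, and 6201 and 5118). Bub1, the checkpoint kinase that pairs with Bub1b at kinetochores, was at −0.51 (−0.63 to −0.39). With libraries scaled by total counts, the ratios of all 45 genes in M2 shifted up by 0.08 and those of Ccnb2, Plk1, Birc5, Kif20a, Rrm1 and E2f8 changed sign, all with an interval that held 0 under TMM. The counts of M2 intervals below and above 0 are those under TMM and depend on the scaling. Some bounds lay nearer to 0 than this shift, among them the upper bounds of Mcm4, Rrm2 and Cdc45. The lower bounds of Ccna2, Cdk1, Cenpf and Mcm7 did so too.

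The ratio in M2 differed from that in M0 beyond counting error for every member. The difference of log2 ratios (M2 minus M0) had a median of 1.91 (0.84 to 2.66), with 45 of 45 intervals above 0, where 21.3% of all genes had an interval above 0 and 24.3% below. It was largest for Uhrf1 (2.66, 2.52 to 2.79), Cdc6 (2.54, 2.24 to 2.83) and Tk1, a thymidine kinase gene (2.42, 2.24 to 2.61), and smallest for E2f1 (0.84, 0.70 to 0.98) and Cdt1 (1.05, 0.90 to 1.20). For M1 minus M0 the median was 2.19 with 43 of 45 intervals above 0, the exceptions being Plk1 and Cenpf. Over all genes, 28.8% of these intervals lay above 0 and 29.2% below. For M2 minus M1, 12 of 45 intervals lay below 0 and 1, that of Kif23, above it. Of all genes, 25.7% lay below 0 and 24.2% above, so the share of members below 0 was near that of all genes. These intervals cover counting error only, and the 3 differences share libraries.

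Polarization was compared with M0 without drug. In M1 control, 45 of 45 genes were called lower than in M0 control, with 18.0% of all genes called lower and 16.1% called higher. The median log2 ratio was −5.61, beside −0.05 over all genes, and 11 of the 45 genes stood below 1% of their M0 level. With libraries scaled by total counts the median of all genes shifted to −0.49 and the share of calls that were higher went from 47.3% to 29.3%, while 45 of 45 members were called lower, with a median of −6.05.

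Mitosis genes reached the lowest levels in M1. Cenpf held 1796 counts in M0 control and 0 in M1 control, at least 504-fold lower when the M1 library is set to the floor of 3 counts. Ccna2 (ENSMUSG00000027715.9), the cyclin A gene of S phase and mitosis, went from 5799 to 6 counts (−9.67, −11.11 to −8.54), and Ube2c (ENSMUSG00000001403.13) from 2707 to 4 (−9.15, −11.03 to −7.79). Mki67 differed from them, with 18430 and 1589 counts (−3.29, −3.36 to −3.21), or 10.3% of its M0 level. Bub1 was at 9.16%, and the other 20 mitosis genes were below 5%.

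The members that kept most of their level in M1 were E2f1, Pcna and Tyms. E2f1 held 2715 counts in M0 control and 681 in M1 control (−1.75, −1.87 to −1.62), Pcna 14456 and 3175 (−1.94, −1.99 to −1.88) and Tyms 1459 and 246 (−2.32, −2.52 to −2.12). They stood at 29.8%, 26.1% and 20.05% of M0 control. Cdt1, Ccne1 and Gins2, a subunit of the replicative helicase, followed at 17.1%, 13.7% and 10.3%. Rrm2, by contrast, went from 9616 to 27 counts (0.334%), and its partner subunit gene Rrm1 from 8131 to 504 (7.37%). Of the exon bases of Gins2, 67.3% lie opposite exons of Gse1, which held up to 1633 counts, so its reads cannot be told from those of Gse1 if strand was not used in counting.

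In M2 control, 41 of 45 genes were called lower than in M0 control, with 6.64% of all genes called lower and 3.55% called higher. The median log2 ratio was −1.29 (−1.93 to −0.40), beside 0.00 over all genes, and all 45 intervals lay below 0 (26.9% of all genes). The lowest were Tk1, from 3323 to 1038 counts (−1.93, −2.03 to −1.83), E2f8, from 2670 to 1020 (−1.64, −1.74 to −1.53), and Uhrf1, from 6450 to 2620 (−1.55, −1.61 to −1.48). The 4 genes short of 2-fold were Pcna, from 14456 to 13031 counts (−0.40, −0.43 to −0.36), E2f1, from 2715 to 2120 (−0.61, −0.69 to −0.52), Cdt1, from 2879 to 2159 (−0.66, −0.75 to −0.58), and Mcm4, a helicase subunit, at −0.99. Just inside the threshold were Tpx2, a spindle assembly factor, at −1.003 and Mcm2 at −1.02. Pcna, E2f1 and Cdt1 were thus among the members that kept most of their M0 level in both polarized states.

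With regorafenib in both libraries, M2 was above M0. All 45 genes had an interval above 0, with log2 ratios of 0.17 to 1.11 and a median of 0.66, beside −0.03 over all genes, of which 23.9% had an interval above 0 and 26.4% below. The 3 called higher were Cdc6 (181 and 332 counts; 1.11, 0.85 to 1.38), Uhrf1 (896 and 1639; 1.11, 0.99 to 1.23) and Mcm5 (1260 and 2196; 1.04, 0.94 to 1.14), and 0 were called lower, with 3.76% of all genes called higher and 3.81% called lower. Pcna was just short at 0.98. M1 with regorafenib was called lower than M0 with regorafenib for 40 of 45 genes, and 44 had an interval below 0 (39.9% of all genes), with 19.4% of all genes called lower and 15.4% called higher. The 5 not called were Mki67 (−0.65), Pcna (−0.61), E2f1 (−0.38), Ccne1 (−0.32) and Tyms, which alone had an interval above 0 (257 and 358 counts; 0.93, 0.69 to 1.17). The comparisons with and without regorafenib use different libraries for both states.

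**Figure D4:**
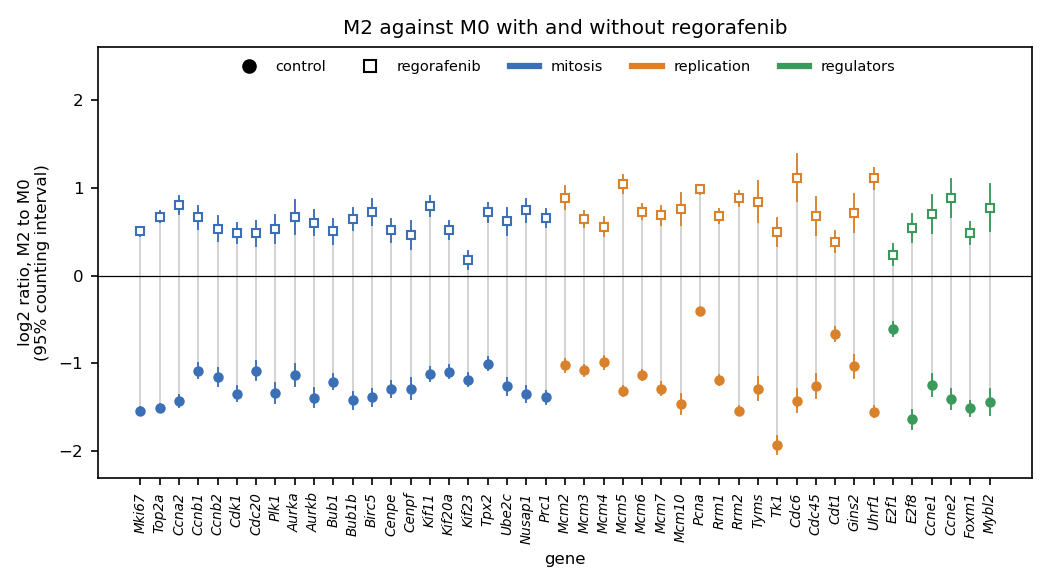
Log2 ratio of M2 to M0 for each of the 45 genes, without regorafenib (filled circles) and with it (open squares), with 95% counting intervals; grey lines join the 2 values of a gene and colours mark the groups. Every filled circle lies below 0 (−1.93 to −0.40) and every open square above it (0.17 to 1.11).

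A fit over all 6 libraries allowed a test across states, with edgeR's quasi-likelihood test (additive state and treatment, Benjamini-Hochberg adjusted over 14110 genes). With 1 library per condition, what it takes as error is how unequal the 3 states are in their response, and nothing says that the cultures were independent. For regorafenib, 0 of 45 genes passed an adjusted p of 0.05 (0% of all genes were called lower, and 1637 of 14110 had an unadjusted p under 0.05). Of the 45, 5 had an unadjusted p under 0.05 (Cdt1, Pcna, Kif23, Ccne2 and Ube2c) and the lowest edgeR adjusted p was 0.409, with negative estimates for 45 of 45 and a median of −0.78 on the log2 scale. DESeq2 also called 0 of the 45, beside 160 lower and 136 higher of 13334 genes, and 13 of the 45 had an unadjusted p under 0.05. These p-values moved with the setting: edgeR with no filter gave 30 members at an unadjusted p under 0.05 and a lowest adjusted p of 0.0747, and leaving out the libraries of M0, M1 or M2 gave 0, 7 and 33 members, with 0 called each time. Without the M0 libraries the edgeR median was −0.07, with a negative estimate for 25 of 45.

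For M1 against M0 over both treatments, edgeR called 41 of 45 genes lower, where it called 18.2% of all genes lower and 18.5% higher, and the median was −4.55. The 4 not called were Mki67 (edgeR adjusted p = 0.0554), E2f1 (0.0602), Ccne1 (0.0893) and Tyms (0.479). For M2 against M0, 0 of 45 passed, with 0.0142% of all genes called lower and 0.184% higher. The median was −0.40, the lowest edgeR adjusted p of a member was 0.817, and 0 of the 45 had an unadjusted p under 0.05. DESeq2 called 44 and 0 of the 45 in these 2 comparisons. Over all genes it called 2586 lower and 2582 higher of 15752 for M1, and 166 and 244 of 14301 for M2.

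Other genes of the same processes were listed by their known roles with earlier results of these data in view, so they are no independent check. The shares of all genes called, to be read beside each count of these lists with regorafenib in M0, are the 9.59% lower and 7.81% higher given above. Of 46 further mitosis genes, 43 were called lower with regorafenib in M0 and 0 higher, with a median of −1.84. The 3 not called were Bub3, a checkpoint protein gene (3524 and 2645 counts, −0.52), Cdc25b, a phosphatase that activates CDK1 (5155 and 3047, −0.86), and Incenp, a passenger complex scaffold (5754 and 3261, −0.92). The lowest was Pbk, a mitotic kinase gene, at −2.22. Of 35 further replication genes, 29 were called lower, with a median of −1.57. Pole, the leading-strand polymerase, was the lowest at −2.61, and the clamp loader genes Rfc2 and Rfc1 were the highest at −0.35 and −0.46. All 16 genes of S phase DNA repair and checkpoint signalling were called lower, with a median of −2.31.

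In M1 control against M0 control, 44 of 46, 34 of 35 and 15 of 16 genes of these lists were called lower, and in M2 control 38, 12 and 14, beside 18.0% and 6.64% of all genes. With regorafenib in M2, 0 of the 97 were called, beside 3.83% of all genes called lower and 5.03% higher. In M1, 2 of the 46 further mitosis genes were called, Cenpa, the centromeric histone, lower (43 and 13 counts, −1.63) and Ckap2l, a spindle protein gene, higher (16 and 44, 1.56), together with 0 of the 35 further replication genes and 1 of the 16 S phase repair genes, which was higher and is not reported by name. These few calls stand beside 2.30% of all genes called lower in M1 and 1.17% higher.

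Genes that govern entry into the cycle differed in which states they moved. Ccnd1, the cyclin D1 gene, held 29262 counts in M0 control and 1921 with regorafenib, 57 and 76 in M1, and 51132 and 5438 in M2. It was thus called lower with regorafenib in both M0 and M2, whereas 0 of the 45 cell cycle genes were called in M2. Cdk6, a partner of cyclin D, was also called lower in M0 and M2, with 5357 and 1965 counts in M0 (−1.55, −1.62 to −1.47), 1652 and 1783 in M1, and 7135 and 2224 in M2 (−1.30, −1.37 to −1.23). Ccnd2, a second D-type cyclin gene, held 363 and 50 counts in M0, 353 and 35 in M2, and 1723 and 4155 in M1 (1.37, 1.29 to 1.45), the 1 gene of its list called higher. Myc, a growth transcription factor, went from 1142 to 193 counts in M0 (−2.67, −2.89 to −2.45) and from 1786 to 841 in M2 (−0.70, −0.82 to −0.58), and held 113 and 104 in M1. Over the 8 genes of G1 entry that passed the count filter, 5 were called lower in M0 and 0 higher, 3 lower in M2, and 1 higher in M1. The shares of all genes were 9.59% lower in M0, 3.83% lower in M2 and 1.17% higher in M1.

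Of 7 CDK inhibitor genes, Cdkn1b (p27) was the 1 called higher with regorafenib in M0 (1002 and 2184 counts, 1.02, 0.91 to 1.13) and in M2 (752 and 1257, 1.13, 0.99 to 1.26). Of all genes, 7.81% were called higher in M0 and 5.03% in M2. Cdkn1b held 1719 and 1393 counts in M1, so that its level in M1 control was near that of M0 with regorafenib (66.5 and 66.3 CPM). Cdkn1a (p21) went the other way, from 15347 to 4265 counts in M0 (−1.95, −2.00 to −1.90) and from 24983 to 6268 in M2 (−1.61, −1.65 to −1.57), and held 36594 and 31329 in M1. Cdkn2c (p18) went with the 45 genes in M0 and M1, with 2158 and 987 counts in M0 (−1.23, −1.34 to −1.12) and 66 and 53 in M1, and held 1034 and 1053 in M2 (0.41, 0.29 to 0.54). Of the 4 of 7 called lower in M0 (9.59% of all genes), Cdkn2d and Cdkn2a were the others, Cdkn2a on 69 and 24 counts.

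**Figure D5:**
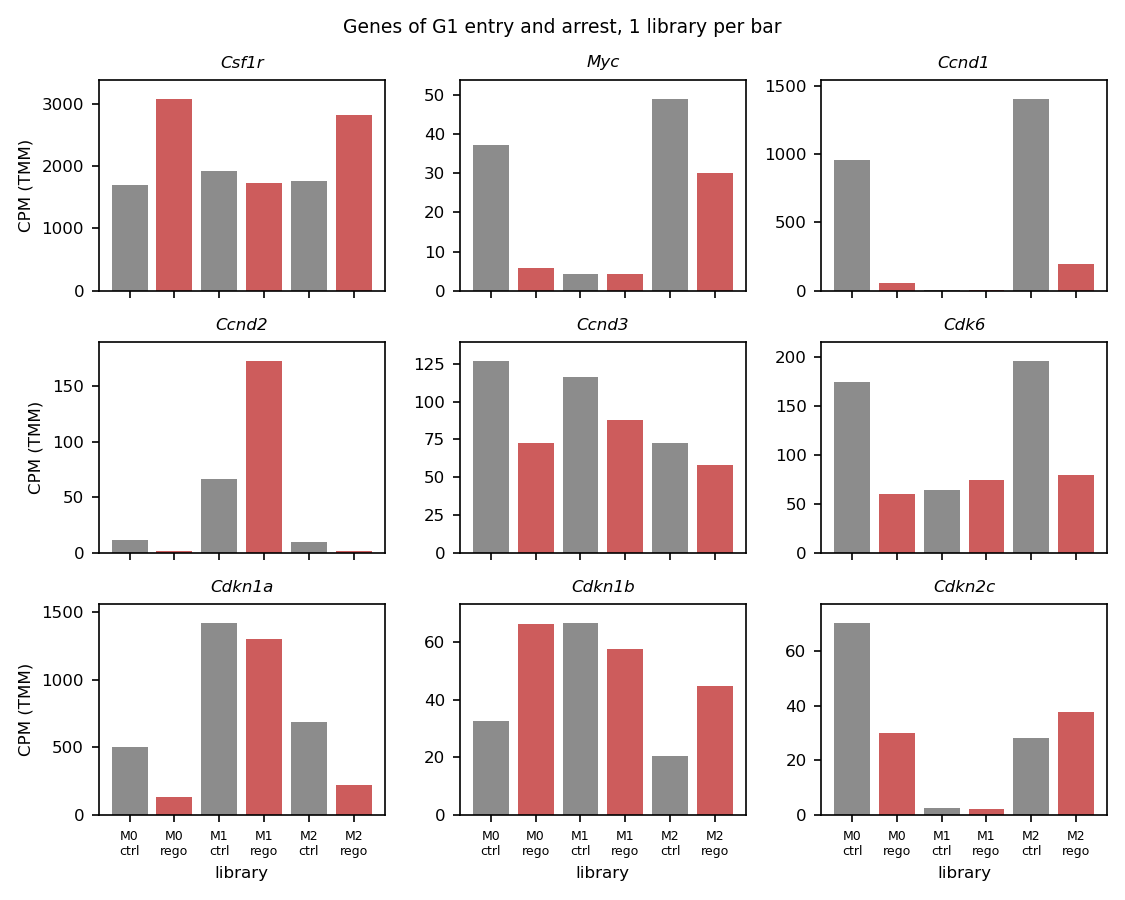
CPM of 9 genes of growth factor signalling, G1 entry and arrest in the 6 libraries, 1 bar per library (grey control, red regorafenib), each panel with its own axis from 0. Ccnd1 and Cdk6 are low with regorafenib in M0 and M2 and in both M1 libraries, Cdkn1b is higher with regorafenib in M0 and M2, and Csf1r is higher with regorafenib in those states.

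Of 16 genes of the retinoblastoma family, the E2F family and the MuvB core, 5 were called lower in M0 and 0 higher, beside 9.59% and 7.81% of all genes. E2f7, a repressor of E2F targets, went from 1160 to 211 counts (−2.56) and Rbl1, the pocket protein p107, from 3455 to 1015 (−1.87), while Rb1 (1525 and 1963, 0.26) and Rbl2, the pocket protein p130 of resting cells (1903 and 2728, 0.42), had intervals above 0. E2f2, Tfdp1 and Lin54 were the others called lower. In M1 and M2, 0 of the 16 were called with regorafenib. Of all genes, 2.30% were called lower and 1.17% higher in M1, and 3.83% and 5.03% in M2.

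Of 7 genes of CSF-1 and GM-CSF signalling that passed the count filter, 2 were called lower with regorafenib in M0 and 1 higher, beside the same shares of all genes. The gene called higher was Csf2rb, the shared β chain of the GM-CSF receptor (5729 and 14178 counts, 1.21), which was also called higher in M2 (13961 and 22782, 1.09). In M1, Csf2, the GM-CSF gene, was called higher (70 and 462, 2.82). Csf1r held 52356 counts in M0 control and 101392 with regorafenib (0.85, 0.84 to 0.87), 49500 and 41775 in M1 (−0.14) and 64521 and 78969 in M2 (0.68, 0.66 to 0.69), with no call at 2-fold. Ets2 and Etv5, transcription factor genes known to respond to ERK signalling, were the 2 called lower in M0 (5416 and 1146 counts, −2.34; 1994 and 444, −2.27). In M2, Ets2 was called lower (2774 and 772, −1.46) and Etv5 was just short of the threshold (1721 and 666, −0.99). In M1, Ets2 held 7166 and 4427 counts (−0.59) and Etv5 700 and 635 (−0.04). The part of these genes in the levels of the 45 cell cycle genes was not tested.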

How the data were processed

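RNA from 6 BMDM libraries, grouped by GEO's labels, was sequenced as 2×100 bases from a stranded mRNA kit. Per the study's methods, cutadapt 2.4 trimmed the reads, and STAR 2.7.2a mapped them to GRCm38 and counted them on Gencode M19. The authors deposited raw counts per gene. The strand setting of the counting is not given in the sources used here. Names, positions and exon lengths came from Gencode M21 (53229 IDs matched with version, 1180 without, 37 not). Gins2, Kif20a, Mybl2, Ccnb1, Ccne2, Ccna2 and Pcna share over 10% of their 100-base stretches with another gene or pseudogene, so their counts are uncertain to that extent.

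Counts were scaled with TMM (edgeR 4.0.16, R 4.3.3). Each log2 ratio (0 counts set to 0.5) has a conditional exact binomial 95% interval, and differences of ratios a normal interval from the counts. The floor was 3 counts. The fit across libraries was edgeR's quasi-likelihood test after filterByExpr, with adjusted p under 0.05. Alternatives were DESeq2 1.42.0, other scalings, filters and folds, leaving out each state, and NOISeq's no-replicate mode rewritten in Python 3.11.15 (5 simulated replicates of 20% of reads, probability of at least 0.8). Scripts were tested on simulated counts.

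Members, lists and naming rule were chosen with earlier results of these data known. All 45 members passed the count filter. Full values are given for the 3 highest and 3 lowest ratios of a comparison among members whose higher library reached 100 counts, and for the 2 genes of each group with the highest mean level per length. Other lists follow the same rule, with Csf1r, Ccnd1, Ccnd2, Cdkn1a, Cdkn1b and Cdkn2c in any case. Genes outside it were chosen after their values were seen.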

Additional observations from a re-analysis of the deposited data

Results flagged for a closer look

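In 7 mitosis genes the interval of the regorafenib log2 ratio lay below 0 in M0 and above 0 in M2. Their differences (M2 minus M0, log2 scale) were 2.04 for Mki67, 2.17 for Top2a, 1.56 for Cdc20, 1.99 for Aurkb, 2.06 for Bub1b, 2.09 for Nusap1 and 2.04 for Prc1. In 6 genes the interval lay below 0 in M0 and above 0 in M1, with differences (M1 minus M0) of 2.64 for Mki67, 2.54 for Top2a, 2.77 for Ccnb1, 2.47 for Prc1, 3.02 for Mcm2 and 3.25 for Tyms. Between M1 and M2, 3 genes lay above 0 in M1 and below 0 in M2, with differences (M2 minus M1) of −1.02 for Ccnb1, −1.12 for Mcm2 and −1.12 for Tyms. Each was singled out because the libraries of a pair of states moved in opposite directions. The value in M1 or M2 was under 2-fold for each of these genes, and with 1 library per condition the differences were not tested. None of these genes was called in both states of its pair. The share of all genes with the same pattern was not counted, so whether these numbers of members are unusual is not known. Over all genes, 33.7% had an interval below 0 in M0 and 15.9% had one above 0 in M1. In M2, 26.1% had an interval above 0 and 31.6% below.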

How the results depend on the processing

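Of the counts of members called in each comparison, 6 moved by more than 1.5 times under an alternative, and all 6 follow from the fold that a call needs. At 4-fold the members called with regorafenib in M0 went from 45 to 23, in M2 against M0 control from 41 to 0, and in M2 against M0 with regorafenib from 3 to 0. Of the 14917 genes, the 4-fold rule called 426 lower and 323 higher, 217 and 221, and 148 and 221 in these comparisons. At 1.5-fold the members called went with regorafenib from 0 to 5 in M1 (1 lower, 4 higher) and from 0 to 2 in M2 (2 lower), and in M2 against M0 with regorafenib from 3 to 29. Of the 14917 genes, the 1.5-fold rule called 705 lower and 397 higher, 1380 and 1425, and 1121 and 1089 in turn. The other 76 counts, under other scalings, filters, an added 1 CPM, NOISeq's probability and the tests across libraries, stayed within 1.5 times. Among single members, 1126 of 1260 alternative values moved by less than the counting interval, 134 by more, and 0 called values changed sign. The scalings for the differences between states were chosen after the data were examined, and gave 45 and 43 members above 0 for M2 and M1 against M0, as with TMM. Over all genes, edgeR called 0 for regorafenib across states (1637 at an unadjusted p under 0.05), DESeq2 296, edgeR with no filter 333, and edgeR without the M1 libraries 386. For M2 against M0 edgeR called 2 lower and 26 higher, DESeq2 166 and 244, and edgeR with no filter 165 and 243. Leaving out the libraries of M0, M1 or M2 gave 0 members called each time, and the median of the members went from −0.78 to −0.07 without M0, −1.07 without M1 and −1.13 without M2, with a negative estimate for 25 of 45 without M0 and 45 of 45 otherwise; the cause was not tested. The fit compared regorafenib with control within each state, as a block, and leaving state out of it gave 0 members. In M1, 11 members stood below 1% of M0 control, where depth limits what a ratio can show.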
